A study of Mus musculus with 2 samples.

Results

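The genes described here are 10 members of the bone morphogenetic protein (BMP) and hepcidin axis of the liver, chosen by name among the 34244 genes of the count tables: the ligand genes Bmp2, Bmp4 and Bmp6, the inhibitor of DNA binding genes Id1, Id2, Id3 and Id4, the inhibitory SMAD genes Smad6 and Smad7, and Hamp, which encodes the iron hormone hepcidin. Each was found in both tables. They were measured by single-cell RNA sequencing of the non-parenchymal cells of 2 livers of C57/BL6 mice. The PCB126 mouse was given 3,3',4,4',5-pentachlorobiphenyl, a dioxin-like compound that binds the aryl hydrocarbon receptor, at 20 µg/kg/day. The Control mouse was given the peanut oil vehicle, although its treatment label reads untreated. Per the labels, exposure lasted 5 weeks and ended with a 12-hour fast for both mice, the age label of both is postnatal day 21, and the gavage is described as given once while the dose is given per day. Hepatocytes had been removed by spinning and straining, so the main known source of hepcidin was largely left out: the gate described below found 1 hepatocyte-like cell in the PCB126 library and 2 in the Control library.

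With 1 mouse and 1 library per group, mouse, library and treatment cannot be told apart, and no test between the groups was possible. The comparisons therefore rest on 1138 PCB126 cells (9888509 UMIs, the counted molecules) and 1858 Control cells (13763541 UMIs). Cells were placed in classes by marker genes, none of which is a BMP pathway gene, and each named class is written with -like. UMIs were summed per class and library and are given as CPM, the UMIs of a gene per 1000000 UMIs of its class. All intervals are exact 95% intervals and cover counting error only. The libraries differed in make-up. There were 633 PCB126 and 280 Control endothelial-like cells, 84 and 64 cholangiocyte-like cells, 90 and 721 neutrophil-like cells, and 11 and 423 monocyte-like cells. The 2 libraries shared 3 barcodes, none of them among the cells kept. Cyp1a1, the classical target of the aryl hydrocarbon receptor, stood at 4669 CPM in PCB126 and 33.2 CPM in Control liver sinusoidal endothelial cell (LSEC)-like cells.

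BMPs are secreted dimers that bind pairs of type I and type II receptor kinases. The receptors phosphorylate SMAD1, SMAD5 and SMAD9, which move to the nucleus with SMAD4 and activate ID genes, Smad6, Smad7 and, in hepatocytes, Hamp. In liver, BMP2 and BMP6 come mainly from the endothelium, and hepatocytes answer them with hepcidin, which closes the iron exporter ferroportin. SMAD6 and SMAD7 feed back on the receptors, and ID proteins hold basic helix-loop-helix factors in complexes that cannot bind DNA.

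The genes lie on several chromosomes of build GRCm38, per GENCODE M21, and all are protein-coding. Bmp2 (chr2:133552159-133562885) and Id1 (chr2:152736251-152737410) lie on the plus strand, as do Bmp6 (chr13:38345107-38500302), Id4 (chr13:48261228-48266026) and Id3 (chr4:136143497-136145755). Bmp4 (chr14:46383520-46390669), Id2 (chr12:25093799-25097140), Smad6 (chr9:63953076-64022059) and Hamp (chr7:30942368-30944032) lie on the minus strand. Genes on the other strand overlap Bmp4, Bmp6, Id4 and Hamp; the one over Bmp4 with UMIs, Gm15222, had 1 PCB126 and 11 Control UMIs over all cells.

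Promoter sequences were available for 7 of the 10 genes, from RefSeq on build GRCm38.p6; Bmp2, Id1 and Smad7 had no entry. The 250 bases before the transcription start were searched on both strands for GGCGCC, the core of the BMP-responsive element known from the hepcidin promoter, and for GCGTG, the core of the site bound by the aryl hydrocarbon receptor. GGCGCC, which reads the same on both strands, occurred in 9.59% of all 32851 promoters in the table and GCGTG in 28.2%. Among the 7 genes, Hamp, Id2 and Id4 held GGCGCC once each, Bmp6, Id3 and Smad6 held GCGTG once each, and Bmp4 held neither. The windows of Bmp6, Id2 and Id3, set by the RefSeq start, lie wholly inside the GENCODE extent of the gene. The windows of Hamp, Id4 and Smad6 are printed because each holds a match and lies before the gene's annotated extent, but for 3 bases of Hamp; capitals mark the match. The matches are letters in a window and were not measured as bound.
Hamp, chr7:30944030-30944279, minus strand: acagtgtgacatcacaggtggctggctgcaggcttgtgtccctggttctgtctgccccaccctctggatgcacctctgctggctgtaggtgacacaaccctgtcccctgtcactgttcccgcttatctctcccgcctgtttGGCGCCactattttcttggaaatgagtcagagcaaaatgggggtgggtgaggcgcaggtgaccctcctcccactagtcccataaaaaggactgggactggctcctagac
Id4, chr13:48260866-48261115, plus strand: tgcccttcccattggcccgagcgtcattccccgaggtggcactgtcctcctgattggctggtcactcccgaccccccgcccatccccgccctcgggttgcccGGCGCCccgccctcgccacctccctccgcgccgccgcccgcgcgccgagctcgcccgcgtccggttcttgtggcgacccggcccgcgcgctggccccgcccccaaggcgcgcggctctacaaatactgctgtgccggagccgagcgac
Smad6, chr9:64022060-64022309, minus strand: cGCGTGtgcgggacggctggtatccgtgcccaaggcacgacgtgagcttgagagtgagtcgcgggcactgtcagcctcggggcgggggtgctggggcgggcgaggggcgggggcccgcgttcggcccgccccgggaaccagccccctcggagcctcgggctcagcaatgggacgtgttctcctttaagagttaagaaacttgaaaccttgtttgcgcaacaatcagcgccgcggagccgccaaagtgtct
The GGCGCC of Hamp begins 109 bases before the start and that of Id4 begins 148 bases before it. The GCGTG of Smad6 begins 249 bases before its start. Hamp2, the paralog of Hamp, held neither motif in its own 250 bases, which lie wholly inside its GENCODE extent.

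Bmp2 and Bmp6 were about 2 times as high in PCB126 as in Control sinusoidal endothelium, whereas Bmp4, a ligand of the central vein, was lower in the same comparison. Bmp2 encodes a ligand needed in mice for normal hepcidin levels. In LSEC-like cells it had 5658 UMIs in 500 PCB126 cells and 1010 UMIs in 176 Control cells, or 1974 and 959 CPM. The ratio was 2.06 (95% interval 1.93 to 2.20). The 12 LSEC markers were higher too, at 16064 PCB126 and 12734 Control CPM in LSEC-like cells (9 of 12 higher) and at 15132 and 11540 CPM in the pericentral ones (11 of 12 higher). Their part in the ligand differences was not tested. At least 1 Bmp2 UMI was seen in 490 of the 500 PCB126 cells and in 161 of the 176 Control cells, at median depths of 5557 and 5618.5 UMIs per cell. After each cell was thinned to 1000 UMIs, 389 of 497 PCB126 cells (78.3%) and 95 of 175 Control cells (54.3%) had one. Neutrophil-like cells, which should lack the gene, had a Bmp2 UMI in 4 of 90 PCB126 cells and 5 of 721 Control cells, at median depths of 3944.5 and 3599 UMIs.

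Bmp6 encodes the ligand that in mice follows liver iron stores. LSEC-like cells held 603 PCB126 and 102 Control UMIs, or 210.4 and 96.8 CPM, a ratio of 2.17 (1.76 to 2.71). It was detected in 297 of 500 PCB126 and 68 of 176 Control cells, against 0 of 90 and 2 of 721 neutrophil-like cells. Part of the Bmp6 locus is overlapped on the other strand by Txndc5, whose own count was 528 UMIs in PCB126 cells and 1986 in Control cells. No source used here says whether strand was used in counting, so Bmp6 is uncertain to that extent.

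Within the LSEC-like cells both zones showed the higher ligand levels. Pericentral LSEC-like cells, which lie around the central vein, had 2048 PCB126 and 953 Control CPM of Bmp2 (ratio 2.15, 1.94 to 2.39). Midzonal and periportal LSEC-like cells had 1857 PCB126 and 963 Control CPM (ratio 1.93, 1.76 to 2.11). Under 10 other processing settings the pericentral log2 ratio of Bmp2 ranged from 0.54 to 1.44, against 1.10 as reported. In midzonal and periportal cells it ranged from 0.74 to 1.17, against 0.95. The direction held throughout, but 3 of the pericentral and 4 of the midzonal and periportal values lay outside the counting interval. Bmp6 stood at 229.5 PCB126 and 89.0 Control CPM in the pericentral cells (2.58, 1.84 to 3.72) and at 179.9 PCB126 and 102 Control CPM in the midzonal and periportal cells (1.77, 1.33 to 2.37). In the PCB126 library the pericentral level of each ligand exceeded the midzonal and periportal level without overlap of the intervals. In the Control library the intervals of the 2 zones overlapped for both ligands, but they rest on fewer UMIs. For Bmp2 the pericentral and the midzonal and periportal cells held 396 and 614 Control UMIs, against 3604 and 2054 in PCB126. For Bmp6 they held 37 and 65 Control UMIs, against 404 and 199 in PCB126. Whether the zones differed more in one library than in the other was not tested.

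Beyond the sinusoids, central vein-like endothelium had 548 PCB126 and 223 Control CPM of Bmp2 (511 and 181 UMIs; ratio 2.45, 2.07 to 2.92). Bmp6 there had 58 PCB126 and 27 Control UMIs (ratio 1.87, 1.16 to 3.06). The 8 pericentral sinusoidal markers were also higher in the PCB126 central vein-like cells, at 4455 PCB126 and 2915 Control CPM (7 of 8 higher), and their part in these differences, and in that of Id4 below, was not tested. In arterial and portal-like endothelium Bmp2 had 69 PCB126 and 76 Control UMIs (ratio 0.866, 0.616 to 1.22) and Bmp6 had 17 and 16 UMIs (1.01, 0.482 to 2.14). That class held 33 PCB126 and 29 Control cells, so its intervals are wide, and that of Bmp6 includes the ratio in central vein-like cells. Cholangiocyte-like cells, the bile duct epithelium, held Bmp6 at 35.5 PCB126 and 28.7 Control CPM (1.24, 0.798 to 1.94).

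Outside endothelium Bmp2 was scarce. Cholangiocyte-like cells had 20 PCB126 UMIs and 0 Control UMIs, at least 4.67-fold higher against a floor of 3 counts in the Control class. The 12 LSEC markers summed to 87.6 PCB126 and 23.7 Control CPM in those same cells. Bmp2 in barcodes with under 250 genes stood at 108.6 PCB126 and 12.3 Control CPM. How much of the RNA in those barcodes was free RNA was not measured. The part of RNA from outside the cells in the cholangiocyte-like difference was not tested.

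Bmp4 ran the other way. It encodes a ligand close in sequence to BMP2. Central vein-like cells held 187 UMIs in 100 PCB126 cells and 682 UMIs in 75 Control cells, or 200.4 and 842 CPM, a ratio of 0.238 (0.201 to 0.280). It was detected in 54 of the 100 PCB126 cells and 61 of the 75 Control cells, at median depths of 9069 and 10333 UMIs, and after thinning in 15 of 100 and 36 of 74. Neutrophil-like cells had a Bmp4 UMI in 0 of 90 PCB126 and 1 of 721 Control cells. In LSEC-like cells the sums were 11 PCB126 UMIs, in 4 of 500 cells, and 104 Control UMIs, in 25 of 176 cells (ratio 0.0389, 0.0188 to 0.0725). Of these, 11 and 94 UMIs lay in pericentral cells, and midzonal and periportal cells had 0 PCB126 and 10 Control UMIs, at least 5.78-fold lower against 3 counts. The 8 central vein markers moved with Bmp4 in the pericentral cells: they summed to 3842 PCB126 and 6480 Control CPM, 6 of them lower, 1 higher and Mgp at 0 in both. The part of those cells' make-up in the Bmp4 difference was not tested. In the central vein-like cells themselves the same markers summed to 11616 PCB126 and 12271 Control CPM (3 higher and 5 lower). The 12 vascular endothelial markers summed there to 3659 PCB126 and 5194 Control CPM (7 of 12 lower). The part of these shifts, and of the higher pericentral sinusoidal markers, in the Bmp4 difference was not tested.

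**Figure D1:**
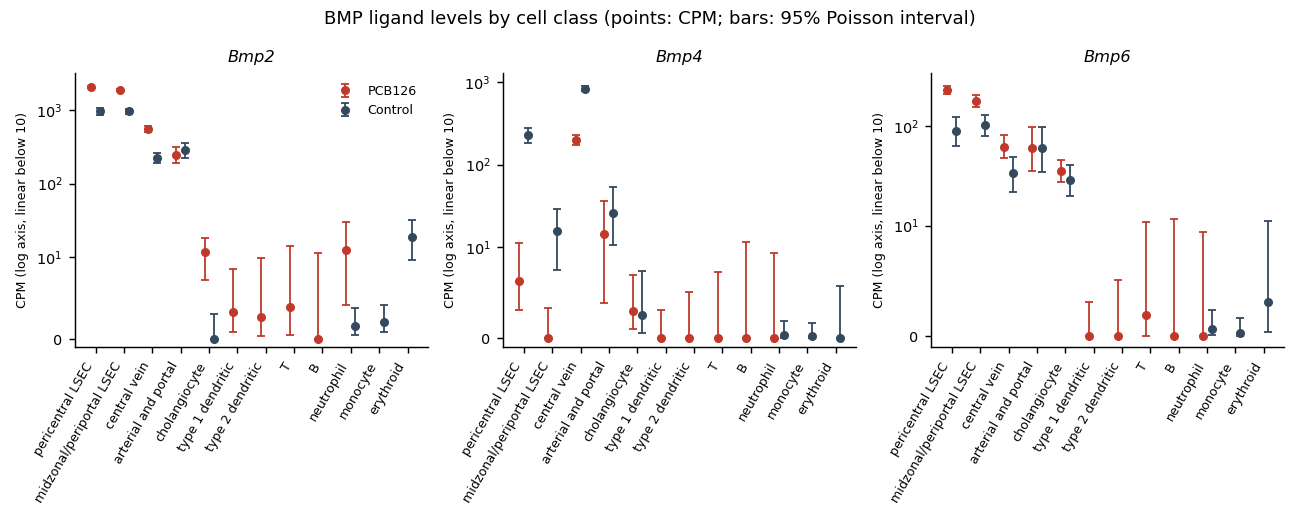
Levels of Bmp2, Bmp4 and Bmp6 in CPM (log axis, linear below 10) by cell class, PCB126 in red left of Control in dark blue; points are class sums, bars are 95% Poisson intervals, and only classes with at least 50 cells in that library are drawn, plus the arterial and portal class. Bmp2 and Bmp6 are highest in LSEC classes and higher in PCB126 there, and Bmp4 is highest in central vein cells, at 200.4 CPM in PCB126 and 842 CPM in Control.

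Most ligand UMIs of the cells kept came from endothelium. The endothelial share was 98.5% of 6333 PCB126 and 96.0% of 1320 Control UMIs for Bmp2, 97.6% of 207 PCB126 and 98.4% of 806 Control UMIs for Bmp4, and 91.3% of 743 PCB126 and 77.5% of 187 Control UMIs for Bmp6. Most of the remaining Bmp6 lay in cholangiocyte-like cells, with 8.07% of the PCB126 and 18.2% of the Control UMIs. Stellate cells, another source of BMP ligands, could not be described, since the gate found 1 PCB126 and 4 Control cells of that kind.

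Among the endothelial subtypes, LSEC-like cells gave 90.7% of the endothelial Bmp2 UMIs in PCB126 and 79.7% in Control. Pericentral cells gave 57.8% of Bmp2 in PCB126 (56.5 to 59.0) and 31.3% in Control (28.7 to 33.9). They also gave 43.1% of all endothelial UMIs in PCB126 and 19.5% in Control, so the share of the ligand moved with the share of the cells captured. Bmp6 had 59.6% of its endothelial UMIs in pericentral cells in PCB126 and 25.5% in Control. Central vein-like cells gave 92.6% of Bmp4 in PCB126 (88.0 to 95.8) and 86.0% in Control (83.4 to 88.3), although they held 22.9% and 38.0% of the endothelial UMIs. With each subtype given the same weight, by adding their CPM, the pericentral part of Bmp2 was 43.6% in PCB126 and 39.3% in Control, and the central vein part of Bmp4 was 90.7% in PCB126 and 75.9% in Control. The gate leaves some cells close to a boundary: 65 PCB126 and 51 Control endothelial cells lay within 0.05 of the score that parts sinusoidal from vascular cells, and 60 and 31 lay as near to the boundary between subtypes.

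**Figure D2:**
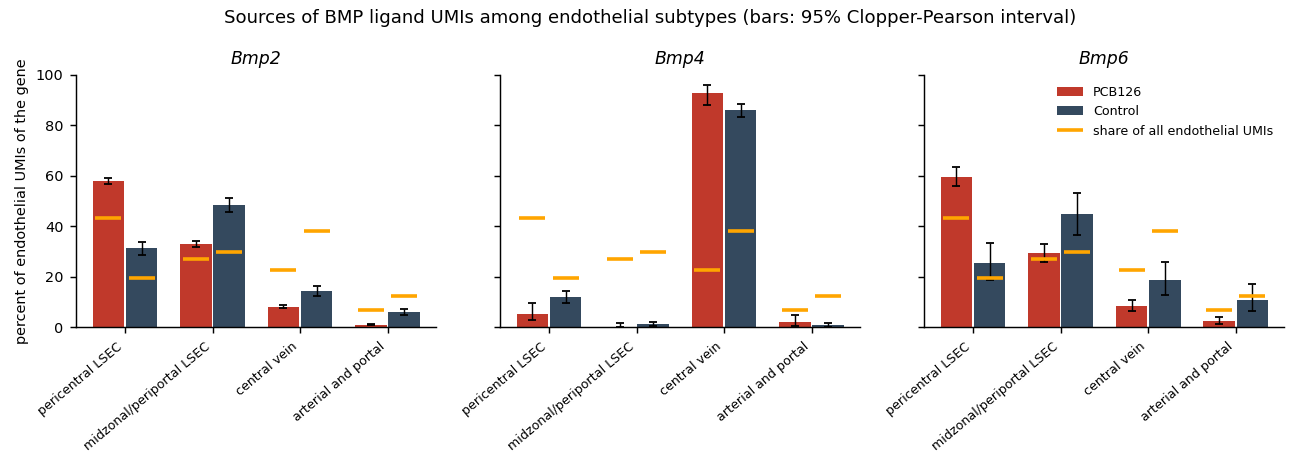
Percent of the endothelial UMIs of each ligand found in 4 endothelial subtypes, PCB126 bars left of Control bars; error bars are 95% Clopper-Pearson intervals and orange marks give the subtype's share of all endothelial UMIs. Central vein cells hold most Bmp4 in both libraries, and pericentral cells hold a larger part of Bmp2 and Bmp6 in PCB126, as they do of all UMIs.

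Single LSEC-like cells often held both ligands. Of the 500 PCB126 cells, 296 had UMIs of Bmp2 and Bmp6 together, and of the 176 Control cells 65 did. At 1000 UMIs per cell, 19.0% of the Bmp2-positive PCB126 cells had a Bmp6 UMI, against 16.7% of the Bmp2-negative ones. The Control figures were 8.42% of 95 Bmp2-positive cells and 11.3% of the others. At that depth a Bmp6 UMI was about as frequent in cells with Bmp2 as in cells without it.

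Over the 17 combinations of class and library with at least 50 cells, the genes whose log2(CPM + 1) ran most like Bmp2 among 8551 genes were Clec4g, Kdr and Ushbp1 (Pearson r = 0.990, 0.985 and 0.984). For Bmp4 they were Samd5, Serpina3n and Col6a3 (r = 0.973, 0.961 and 0.956), and for Bmp6 Shroom2, Itga9 and Igsf3 (0.983, 0.982 and 0.981). Id1 ran most like March8, Pld1 and Tgm2 (0.952, 0.930 and 0.922). These are descriptions: the points share 2 libraries, and which contrast between classes the correlations rest on was not measured. In both libraries Bmp2 and Bmp6 were highest in an LSEC-like class and Bmp4 in central vein-like cells. Id1 was highest in cholangiocyte-like cells in both, though in PCB126 its interval overlapped that of central vein-like cells. Clec4g and Kdr are themselves markers by which cells were placed in the endothelial classes, so their profile over the classes was partly set by the gate.

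Of the ID genes, Id4 followed Bmp2 and Bmp6, Id1 was moderately higher in PCB126 endothelium, and Id2 and Id3 in LSEC-like cells were near the same level in both libraries. Id4 had 807 PCB126 and 134 Control UMIs in LSEC-like cells, or 282 and 127 CPM (ratio 2.21, 1.84 to 2.68). It was seen in 314 of 500 PCB126 and 75 of 176 Control cells, against 1 of 90 and 0 of 721 neutrophil-like cells, and after thinning in 105 of 497 and 16 of 175. Pericentral cells had 306 PCB126 and 120.3 Control CPM of Id4, midzonal and periportal cells 242 and 132 CPM, and central vein-like cells 141 and 51.8 CPM, with ratios of 2.55, 1.84 and 2.73. The lower bounds of those ratios were 1.90, 1.43 and 1.92. Arterial and portal-like cells had 0 PCB126 and 12 Control UMIs of Id4, at least 4.19-fold lower against 3 counts. Of those 12 UMIs, 9 lay in 1 cell.

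Id1, the ID gene most used as a readout of BMP signalling, had 235 PCB126 and 54 Control UMIs in LSEC-like cells, or 82.0 and 51.3 CPM, a ratio of 1.60 (1.19 to 2.19). Thinning to 1000 UMIs left it in 29 of 497 PCB126 cells (5.84%) and 12 of 175 Control cells (6.86%). The log2 ratio of the thinned sums was -0.08 against 0.67 unthinned, so the direction of Id1 in LSEC-like cells depended on this setting. The thinned ratio rests on those few cells and a single random draw, and was given no interval of its own. With a stricter gate it was 1.37. In central vein-like cells Id1 had 167 PCB126 and 76 Control UMIs (ratio 1.91, 1.45 to 2.54). Arterial and portal-like cells had 49 and 33 UMIs (1.42, 0.893 to 2.27).

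Id3 had 1859 PCB126 and 662 Control UMIs in LSEC-like cells, or 649 and 628 CPM. Its ratio was 1.03, and the interval of 0.944 to 1.13 leaves out a difference of the size seen for Bmp2. Among classes with at least 50 cells and the arterial and portal class, central vein-like cells held the highest Id3 level in both libraries, at 1191 PCB126 and 944 Control CPM (1.26, 1.15 to 1.38). Arterial and portal-like cells had 491 PCB126 and 761 Control CPM (0.645, 0.516 to 0.805).

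Id2 had another distribution. Its highest levels were outside endothelium, in cholangiocyte-like cells (1289 PCB126 and 1550 Control CPM) and type 1 dendritic-like cells (1314 PCB126 and 1309 Control CPM, from 71 and 36 cells); ID2 is known to be required for type 1 dendritic cells. Type 2 dendritic-like cells of the PCB126 library had 656 CPM, monocyte-like cells of the Control library 613 CPM, and T-like cells of the PCB126 library had 539 CPM. LSEC-like cells had 135 CPM of Id2 in each library (386 and 142 UMIs; ratio 0.999, 0.822 to 1.22). In the arterial and portal-like class it had 44 PCB126 and 85 Control UMIs (0.494, 0.335 to 0.719).

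Of the inhibitory SMAD genes, Smad7 in LSEC-like cells had 244 PCB126 and 213 Control CPM (ratio 1.15, 0.987 to 1.34), and in central vein-like cells 389 PCB126 and 209.8 Control CPM (1.85, 1.54 to 2.24). Smad6, the inhibitor with preference for BMP receptors, had 89.3 PCB126 and 136 Control CPM in LSEC-like cells (256 and 143 UMIs; ratio 0.658, 0.534 to 0.813). The midzonal and periportal cells had 74.1 PCB126 and 158 Control CPM of Smad6 (0.468, 0.346 to 0.633), whereas pericentral cells had 98.9 and 101 CPM (0.978, 0.695 to 1.41). With a limit of 10% mitochondrial UMIs or with thinned cells the log2 ratio of Smad6 in LSEC-like cells changed sign, at 0.17 and 0.22 against -0.61. In central vein-like cells Smad6 had 183 PCB126 and 152 Control CPM (1.21, 0.952 to 1.53).

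**Figure D3:**
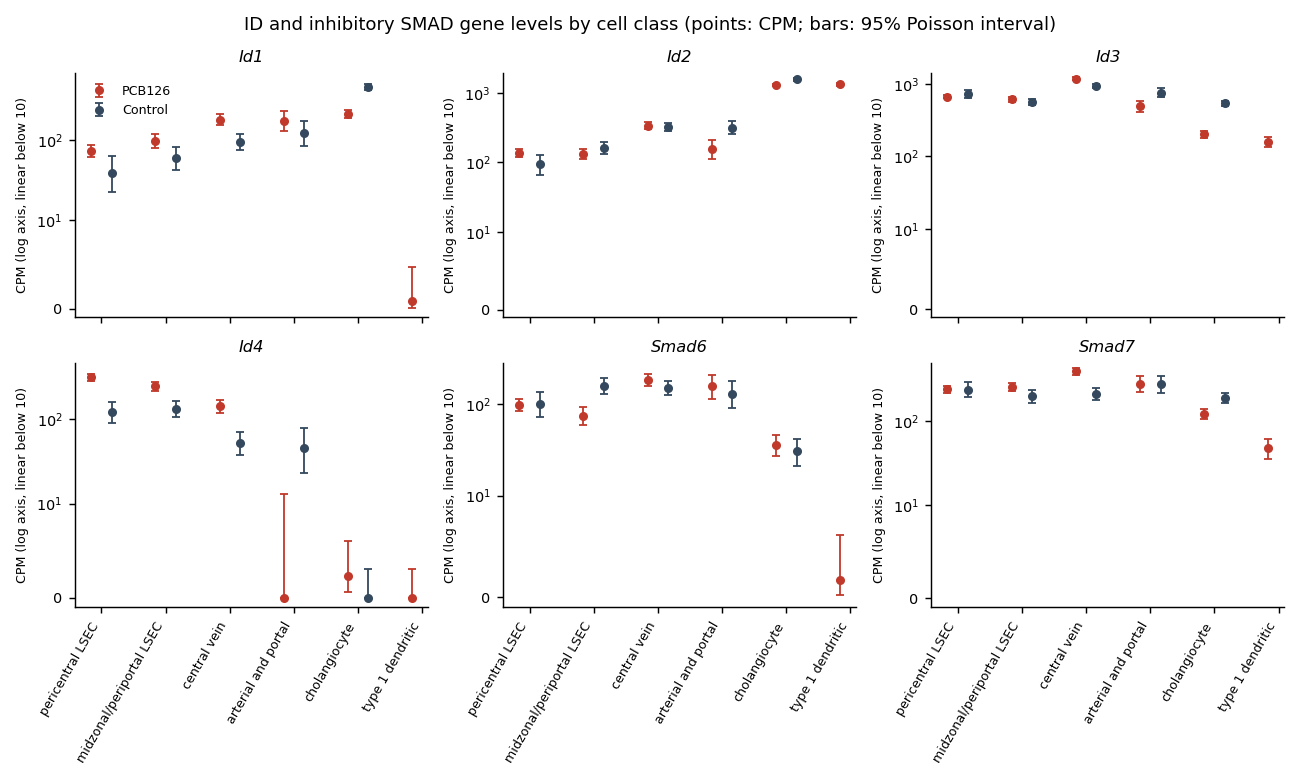
Levels of the 4 ID genes, Smad6 and Smad7 in CPM (log axis, linear below 10) in 4 endothelial subtypes, cholangiocyte-like and type 1 dendritic-like cells, PCB126 in red left of Control in dark blue, with 95% Poisson intervals; the Control type 1 dendritic class, with 36 cells, is not drawn. Id4 is higher in PCB126 in LSEC and central vein cells, and Id1 and Id3 are lower in PCB126 in cholangiocyte-like cells.

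Genes were counted as measured in a class from 20 UMIs over both libraries. By that count 9 of the 10 genes were measured in LSEC-like cells, and 3 of them (Bmp2, Bmp6 and Id4) were at least 2-fold higher in PCB126, against 5.81% of the 9238 genes measured. Bmp4 alone was at least 2-fold lower, against 4.45% of all genes. The median log2 ratio was 0.20 over the 9 genes and 0.01 over all genes. Of 9 measured in pericentral cells, 3 were higher (Bmp2, Bmp6 and Id4; 7.81% of all genes) and 1, Bmp4, was lower (5.40%). Midzonal and periportal cells had 8 measured, with 0 higher (7.30%) and 1, Smad6, lower (4.33%); Bmp2 had a ratio of 1.93 there. In central vein-like cells 2 of 9 were higher, Bmp2 and Id4 (3.07%), and 1, Bmp4, was lower (5.13%). Of 7 in arterial and portal-like cells 0 were higher (3.67%) and 1, Id2, was lower (7.65%). Cholangiocyte-like cells had 8 measured, of which 1, Bmp2, was higher (3.01%) and 3 were lower (1.82%): Id1, Id3 and Hamp.

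Median mitochondrial shares in LSEC-like cells were 14.9% in PCB126 and 11.1% in Control. Markers of other cells differed in both directions in LSEC-like cells. The largest difference was in the 7 erythroid markers, at 406 PCB126 and 1208 Control CPM (0 higher and 6 lower in PCB126). The 12 neutrophil markers summed to 75.7 PCB126 and 219.3 Control CPM (8 of 12 lower in PCB126), and the 10 hepatocyte markers to 136 and 334 CPM (8 of 10 lower). The 10 monocyte markers summed to 20.2 PCB126 and 40.8 Control CPM (2 higher and 5 lower). The 9 cholangiocyte markers summed to 15.7 PCB126 and 2.85 Control CPM (4 higher and none lower), and the 12 stellate and fibroblast markers to 120.03 and 86.4 CPM (5 higher and 4 lower). Their part in the results was not tested. The profile of barcodes with under 250 genes was also subtracted, at a share set by erythroid, neutrophil and hepatocyte markers. That share was 0.29% of the PCB126 and 0.32% of the Control UMIs of LSEC-like cells. The log2 ratios of Bmp2, Bmp6, Id1 and Id3 were then 1.04, 1.11, 0.67 and 0.04, the same to 2 decimals as without it. So small a share could hardly move them, and the part of free RNA was not tested. With mitochondrial genes and the most abundant noncoding and rRNA-related genes left out of the class totals they were 0.99, 1.06, 0.62 and -0.00.

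**Figure D4:**
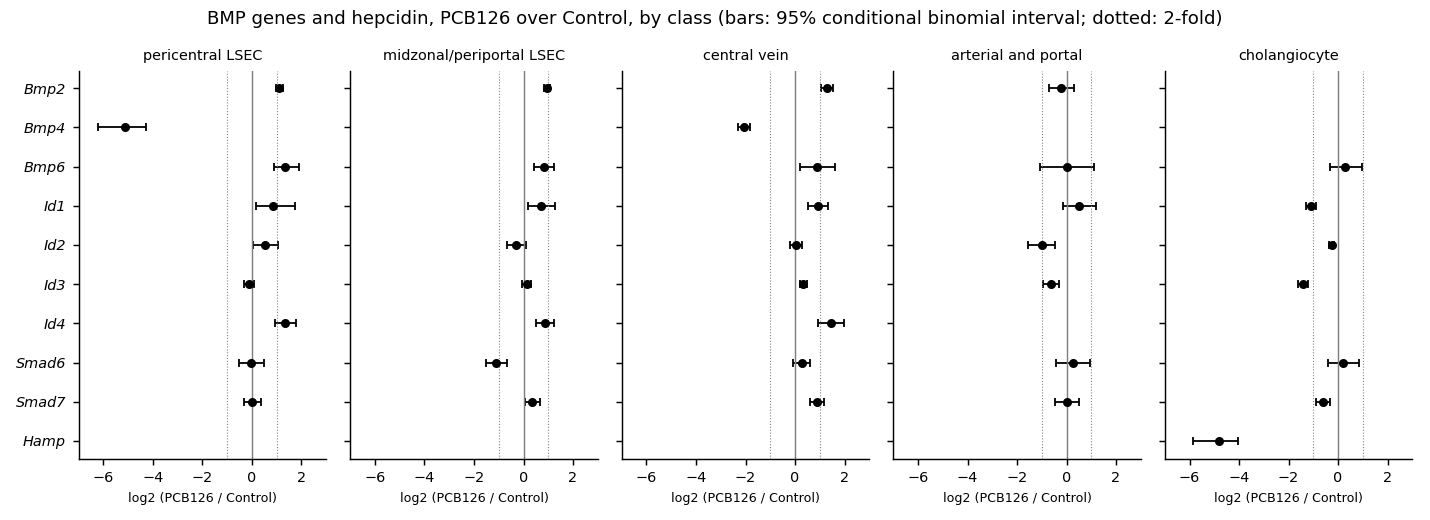
Log2 ratio of PCB126 over Control for each gene in 5 cell classes, with 0.5 counts added to each sum; bars are 95% conditional binomial intervals, dotted lines mark 2-fold, and genes with fewer than 20 UMIs in a class or 0 UMIs in a library are not drawn. Bmp2, Bmp6 and Id4 lie to the right in the LSEC and central vein panels, Bmp4 to the left in the pericentral and central vein panels, and Id1, Id3 and Hamp lie to the left in cholangiocyte-like cells.

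Of 68 other listed genes of the pathway, 30 were measured in LSEC-like cells. Of these, 4 were at least 2-fold higher in PCB126, against 5.81% of all genes, and 2 were lower, against 4.45%, with a median log2 ratio of -0.13. Among the 15 other ligands of the list only Inhbb, which encodes the beta B chain of activin B, had 20 UMIs. It stood at 239.7 PCB126 and 114 Control CPM (2.10, 1.73 to 2.58), and in central vein-like cells at 185 and 83.9 CPM (2.21, 1.66 to 2.97). Activin B is known in mice to be able to raise hepcidin.

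Of 15 receptors, co-receptors and receptor regulators, 8 were measured and none passed 2-fold in either direction. Bmpr2, the main type II receptor, stood at 672 PCB126 and 863 Control CPM (0.778, 0.719 to 0.843), and in central vein-like cells at 690 and 935 CPM (0.738, 0.663 to 0.821). Eng, the endothelial co-receptor endoglin, had 1218 PCB126 and 1126 Control CPM (1.08, 1.01 to 1.16), a direction that turned with a mitochondrial limit of 10% or 50%. Acvrl1, the endothelial type I receptor ALK1, had 83 PCB126 and 17 Control UMIs (1.79, 1.06 to 3.23). The type I receptor gene Acvr1 had a ratio of 0.832 and Hfe, the haemochromatosis gene, one of 1.04, and the type II receptor gene Acvr2a had 26.5 PCB126 and 40.8 Control CPM. Bmpr1a had 2 PCB126 and 0 Control UMIs in LSEC-like cells, but 195 and 88 UMIs in cholangiocyte-like cells (1.55, 1.20 to 2.02).

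The SMAD transducers were measured for 5 of 6 genes. Smad1, Smad4 and Smad5 had ratios of 0.945, 1.00 and 0.702. Smad2, which carries activin and TGF-beta signals, had 100 PCB126 and 18 Control UMIs (2.04, 1.23 to 3.59), while Smad3, its partner, had 31 and 20 UMIs (0.570, 0.315 to 1.05).

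Among 20 antagonists and inhibitors, 8 were measured. Twsg1 and Bmper, extracellular modulators of BMPs, were at least 2-fold lower, on 27 PCB126 and 23 Control UMIs and on 10 and 11 UMIs; with thinned cells Twsg1 turned to a log2 ratio of 0.08. Smurf1, Smurf2, Ski, Skil and Fkbp1a, which act inside the cell, had ratios of 0.872, 1.01, 0.894, 0.780 and 1.02.

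Of 9 other targets, 5 were measured. Cdkn1a, the cell cycle inhibitor p21, had 354 PCB126 and 44 Control UMIs (2.96, 2.16 to 4.14) in LSEC-like cells, and a ratio of 2.63 (1.97 to 3.55) in central vein-like cells. Atoh8, a BMP-induced transcription factor, had 21 PCB126 and 3 Control UMIs (2.57, 0.768 to 13.5). Hes1, which also answers Notch, had a ratio of 1.53 (1.24 to 1.90) and Gata2 of 0.707, while Bcl6b stood at 41.2 PCB126 and 27.5 Control CPM. The E protein genes Tcf4 and Tcf12, whose products ID proteins bind, had ratios of 0.787 (0.725 to 0.856) and 0.785 (0.659 to 0.938), and Tcf3 of 1.04.

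In cholangiocyte-like cells Id1 and Id3 were lower in PCB126. Id1 had 356 UMIs in 84 PCB126 cells and 537 UMIs in 64 Control cells, or 210.6 and 454 CPM (0.464, 0.405 to 0.532). Id3 had 343 PCB126 and 642 Control UMIs, or 203 and 543 CPM (0.374, 0.327 to 0.427). Id1 was detected in 60 of 84 PCB126 and 54 of 64 Control cells, at median depths of 15900 and 11764.5 UMIs, and in 8 of 90 PCB126 and 47 of 721 Control neutrophil-like cells. At 1000 UMIs per cell the figures were 16 of 84 and 24 of 63 for Id1, and 15 of 84 and 25 of 63 for Id3, the same direction. Smad7 had 122 PCB126 and 188 Control CPM (log2 ratio -0.62; interval of the ratio 0.535 to 0.789), and Smad6 35.5 and 30.4 CPM (1.17, 0.759 to 1.82). Atoh8 stood at 88.1 PCB126 and 149.6 Control CPM (0.589, 0.471 to 0.737). Hes1 stood at 831 PCB126 and 2732 Control CPM (0.304, 0.286 to 0.324), and was the 1 gene of 35 measured pathway genes that was at least 2-fold lower in this class, against 1.82% of all genes, with 0 higher, against 3.01%. The difference between classes was not tested. The 9 cholangiocyte markers summed to 14579.6 PCB126 and 17002.5 Control CPM in this class (5 higher and 4 lower). The 7 erythroid markers summed to 55.6 PCB126 and 1380 Control CPM (0 higher and 5 lower). The 12 pan-endothelial markers summed to 78.1 PCB126 and 35.5 Control CPM (11 higher and 1 lower). The part of these shifts in the differences of this class was not tested.

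Hamp was found mainly in cholangiocyte-like cells of the Control library. The class held 12 PCB126 and 247 Control Hamp UMIs, or 7.10 and 209 CPM, a ratio of 0.0340 (0.0173 to 0.0605). At least 1 UMI was seen in 3 of 84 PCB126 cells (3.57%, 0.743 to 10.1) and in 26 of 64 Control cells (40.6%, 28.5 to 53.6). After thinning it was 0 of 84 PCB126 cells and 5 of 63 Control cells. Neutrophil-like cells gave 1 of 90 PCB126 and 11 of 721 Control cells, at median depths of 3944.5 and 3599 UMIs, and the interval of the PCB126 share in cholangiocyte-like cells includes the 1.11% of PCB126 neutrophil-like cells. The UMIs were unevenly spread: the 3 PCB126 cells had 7, 4 and 1, and the 3 highest Control cells had 63, 49 and 28. Without the 3 highest cells of each library 0 PCB126 and 107 Control UMIs were left, an alternative chosen after the data were seen.

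The Hamp-positive Control cells were also deeper, with a median of 25980.5 UMIs against 10440.5 in the Control cells without it, while the PCB126 cells without it had a median of 15849. Transcripts of hepatocyte genes were present in the class in both libraries: Alb stood at 2862 PCB126 and 3397 Control CPM, and the 10 hepatocyte markers summed to 4903 and 5571 CPM. Alb was thus 0.842 times as high in PCB126, while Hamp was 0.0340 times as high. Barcodes with under 250 genes had Hamp at 15.02 PCB126 and 11.95 Control CPM. How far Hamp in these cells came from hepatocytes was not tested. Hamp2, the close paralog of Hamp, with which reads may be split, had 36 PCB126 and 41 Control UMIs in the class (0.615, 0.382 to 0.986). Of the 36 PCB126 UMIs, 24 lay in the cell that also held 7 Hamp UMIs. The highest Control cell held 12 of the 41.

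Outside the cholangiocyte-like class Hamp was at or near 0. LSEC-like cells had 2 PCB126 and 0 Control UMIs, and neutrophil-like cells, the next largest source in Control, had 1 PCB126 and 13 Control UMIs. Of all Hamp UMIs in cells, 63.2% of 19 PCB126 and 91.5% of 270 Control UMIs lay in cholangiocyte-like cells.

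**Figure D5:**
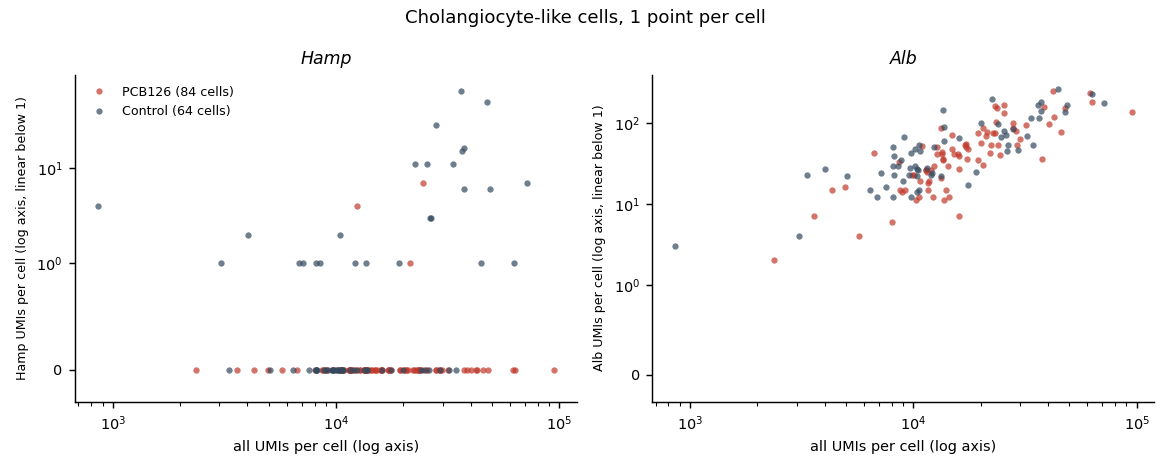
Hamp UMIs (left) and Alb UMIs (right) in each cholangiocyte-like cell against all UMIs of the cell, 84 PCB126 cells in red and 64 Control cells in dark blue, on log axes that are linear below 1. Hamp reaches 63 UMIs in a Control cell and 7 in a PCB126 cell, whereas the Alb points of both libraries overlap over most of the range of depth.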

How the data were processed

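The livers of 1 PCB126 and 1 Control mouse gave 1 droplet library each. As deposited, the count tables are unnormalized: each value is the number of UMIs of a gene in a barcode, written by Cell Ranger 6.0.0 per the file headers. Cell Ranger 6.1.1 and Seurat 4.0.1 appear in the submitters' processing notes. No source used here gives the authors' genome build or annotation. The deposited lists of genes and barcodes hold identifiers. Depth was 16269562 UMIs over 4307 barcodes in PCB126 and 24134912 UMIs over 8550 barcodes in Control.

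Barcodes with at least 500 UMIs, at least 250 genes and at most 20% mitochondrial UMIs were kept. The 11 PCB126 and 28 Control barcodes with the highest Scrublet doublet scores (scanpy 1.11.5) were then removed. Their number was set in advance by an assumed doublet rate of 0.8% per 1000 cells. Scrublet's own threshold called 4 PCB126 and 8 Control doublets. Median depth was 6567 and 5252.5 UMIs. Each cell was given to the marker list with the highest score; 50 PCB126 and 90 Control cells with a score under 0.2 or a margin under 0.05 were left unassigned. Endothelial cells with a sinusoidal share of the score of at least 0.65 were LSEC-like. The scoring rule was chosen after the data were seen. UMIs were summed per class. Levels have exact Poisson intervals, shares Clopper-Pearson intervals and ratios conditional binomial intervals, all at 95%, computed with scipy 1.17.1. Log2 ratios add 0.5 counts. A gene was called from a 2-fold ratio with at least 20 UMIs in the class. Thinning to 1000 UMIs left out 4 PCB126 and 16 Control cells. It was a single random draw, and thinned ratios were given no interval of their own. Only the ratio and its interval were tested on simulated data, drawn as Poisson class sums from the LSEC-like profile. Those draws held no variation between mice or libraries, and the gate, doublet removal and thinning were not simulated. All 10 genes were named, with a list of the pathway's other genes. The members and lists were chosen with earlier results of these data known. Alternatives changed the mitochondrial limit, doublet removal, gate, clusters in place of the gate, class total, centring, thinning and weights. Another subtracted the profile of barcodes with under 250 genes. Positions came from GENCODE M21 by Ensembl ID, which matched 34132 of 34244 IDs.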

Additional observations from a re-analysis of the deposited data

Results flagged for a closer look

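Id1, Id3 and Smad7 stood out because their PCB126 over Control ratios lay on opposite sides of no difference in different cell classes, with counting intervals that leave out a ratio of 1; the differences between classes were not tested. For Id1 the log2 ratio was 0.67 in LSEC-like and 0.93 in central vein-like cells, but -1.11 in cholangiocyte-like cells. For Id3 it was 0.33 in central vein-like cells, -0.63 in arterial and portal-like cells and -1.42 in cholangiocyte-like cells. Smad7 had 0.89 in central vein-like and -0.62 in cholangiocyte-like cells.

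The barcodes left out only for their mitochondrial share, 1698 in PCB126 and 412 in Control, carried Bmp2, Bmp6 and Id4 UMIs. They stood out as data not used in the main results. Bmp2 there had 982 PCB126 and 200.1 Control CPM, from 4094 and 142 UMIs. Bmp6 had 103.6 PCB126 and 18.3 Control CPM, and Id4 had 134 PCB126 and 56.4 Control CPM. These barcodes were not placed in classes, so the share of endothelial barcodes among them was not measured.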

How the results depend on the processing

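No paired analysis was possible because each group is 1 mouse and 1 library. Of 509 recomputations of 49 log2 ratios, 459 stayed within the counting interval, 44 moved beyond it and 6 reversed; 39 ratios kept their direction throughout. In LSEC-like cells Bmp2 was 1.04, against 1.29 and 0.90 with mitochondrial limits of 10% and 50%, and Id3 was -0.15 with 50%. Id1 was 1.37 with the stricter gate and reversed to -0.084 when thinned. Smad6 reversed to 0.17 (10%) and 0.22 (thinned), Eng to -0.0057 (10%) and -0.11 (50%), and Twsg1 to 0.079 (thinned). Bmp6 ranged from 0.90 to 1.39, Bmp4 from -6.03 to -3.19 (in central vein-like cells from -2.19 to -1.97), Id4 from 0.87 to 1.37 and Hamp in cholangiocyte-like cells from -8.36 to -4.50. The LSEC-like share of endothelial Bmp2 UMIs in PCB126 was 81.6% (10%), 93.7% (50%), 87.0% (clusters) and 92.9% (thinned), and in Control 72.2%, 82.4%, 65.2% and 84.6%. For Bmp6 it was 78.8%, 92.5%, 84.7% and 93.6% in PCB126, and 56.6% (10%), 53.1% (clusters) and 86.4% (thinned) in Control. The central vein-like share of Bmp4 was 97.0% (10%) and 100% (thinned) in PCB126, and 97.3% (clusters) in Control. In LSEC-like cells 537 genes were at least 2-fold higher in PCB126 and 411 lower, against 2447 and 1906 with no UMI minimum and 149 and 96 from 100 UMIs. The causes were not tested. Alternatives that left under 10 cells in a class gave no value. Classes of 29 to 75 cells and genes with few UMIs limit what the depth can show.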
